A study of Mus musculus with 4 samples.

Results

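Transcripts of nucleoporins, the proteins that build the nuclear pore, and of the receptors that carry cargo through it were examined in crypt epithelium of the mouse jejunum after loss of Yy1. Genes were taken by symbol, as those that begin with Nup and a digit, Nupl, Xpo, Ipo, Kpna, Kpnb or Tnpo. They came to 44 of the 18193 genes measured, 21 nucleoporins and 23 transport receptors. Each gene was represented by the probe set, a group of short array oligonucleotides for 1 transcript, with the highest mean over the 4 arrays. Nup35 and Nup62cl were not analysed here.

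The study held 2 arrays of Yy1 knockout crypts and 2 of control crypts, called biological replicates in the titles, from mice labelled C57BL/6J enriched. In knockout mice both Yy1 alleles were floxed (YY1f/f) and Vil-Cre-ERT2 supplied a Cre that tamoxifen activates and that the Villin promoter restricts to the intestinal epithelium, so immune and stromal cells in a preparation are not its targets. Tamoxifen was given for 4 days. The same treatment text stands on all arrays and can be read as covering the control mice or not, and the sources used here did not give the genotype of the controls, the ages of the mice or whether animals were pooled. Effects of Cre or tamoxifen and of Yy1 loss therefore cannot be told apart. Where nothing says that the arrays came from separate animals, p-values measure only the spread between these arrays. Yy1 encodes a zinc finger transcription factor, and its brightest probe set read 1648 and 1681 in the controls and 69.4 and 68.1 in the knockouts (log2 difference -4.31 ± 0.10, SE).

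The nuclear pore complex is a channel of stacked protein rings set in the nuclear envelope. An outer ring of Y-shaped complexes and an inner ring form the scaffold, and nucleoporins rich in phenylalanine-glycine repeats fill the channel. Importins bind cargo in the cytoplasm and release it in the nucleus when they meet the GTPase Ran bound to GTP, while exportins need Ran-GTP to hold their cargo. Crypt progenitors divide often, and vertebrate cells take their pores apart and rebuild them at each division.

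YY1 is known to bind a motif around the letters ATGGC, often close to transcription start sites. The promoters of the 44 genes were searched on both strands for AANATGGC followed directly by NGC, in windows from 250 bases before to 50 after the start in a RefSeq table of build GRCm38.p6. Of the 44 genes 36 had an entry, with 43 windows. Kpna1, Kpna3, Kpna6, Nup210l, Nup43, Nup85, Xpo4 and Xpo7 had none. The motif stood in 5 of the 36 genes (13.9%), against 563 of all 27025 genes in the table (2.08%) and 3.12% of the 14368 measured genes with an entry. As a share of windows it stood in 1.80% of all 32851. The windows of the pore and transport genes also held more G and C, with a median of 64.3% against 58.3% for measured genes. These windows of 30 bases show the 5 matches, on the strand of each gene with the motif in capitals.
Nup188: cgcgcgcgcgAAGATGGCGGCtgccgctgg
Nup205: gtcctcctccAAGATGGCGGCgctgttggc
Nup88: ctgttagttcAAGATGGCGGCtgccgtggg
Nup50: ttcgagttacAAGATGGCGGCcccgggcgc
Xpo6: ttcctttaccAAAATGGCCGCgtgtccctt

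They lie at chr2:30286426-30286455 (plus strand) for Nup188, chr6:35177619-35177648 (plus) for Nup205, chr11:70969935-70969964 (minus) for Nup88, chr15:84923409-84923438 (plus) for Nup50 and chr7:126200612-126200641 (minus) for Xpo6. Counted from the start site as 1, the motif began at 21 in Nup188, at 14 in Nup205, at 20 in Nup88, at -9 in Nup50 and at -130 in Xpo6. The first 4 share the same letters, close to the start. A shorter search with AANATGGC alone, which these matches contain, found the same 5 genes and a further match on the minus strand of Nup188 at -103. The shorter letters stood in 6.05% of all windows and in 8.09% of measured genes with an entry, against 13.9% of the 36 genes. Of the genes with these matches, Nup205, Nup50 and Xpo6 rose, and Nup188 and Nup88 were not called (differences of 0.03 and 0.13). Longer stretches from -150 to 30 show the surroundings of the motif in Nup205 (chr6:35177466-35177645) and Nup50 (chr15:84923278-84923457), a scaffold and a basket gene.
Nup205: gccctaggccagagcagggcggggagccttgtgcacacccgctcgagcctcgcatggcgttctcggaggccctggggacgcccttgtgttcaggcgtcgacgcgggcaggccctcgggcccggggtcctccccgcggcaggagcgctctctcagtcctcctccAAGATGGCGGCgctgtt
Nup50: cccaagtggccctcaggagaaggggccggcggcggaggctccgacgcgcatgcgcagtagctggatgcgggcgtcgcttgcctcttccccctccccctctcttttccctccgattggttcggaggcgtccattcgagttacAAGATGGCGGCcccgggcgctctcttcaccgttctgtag

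Pore and transport transcripts were mostly higher in the knockout. Of the 44 genes 29 rose and 0 fell, and 41 had a positive difference, as did 52.0% of all genes. A gene was called where limma gave an adjusted p under 0.05 on log2(intensity + 16), in a fit over all genes, and differences below are knockout minus control on that scale ± SE with n = 2 arrays a group. Among all genes 13.4% rose and 10.9% fell. At an unadjusted p under 0.05, limma counted 35 of the 44 as higher and 2 as lower, against 19.2% and 16.3% of all genes. The median difference was 0.51, against 0.01 over all genes. In 38 of the 44 both knockout arrays lay above both control arrays, as in 32.7% of all genes, and in 3 both lay below, as in 29.3% of all genes. Of the genes that rose, 19 did so by at least 1.5-fold and 4 by at least 2-fold, and the shares of all genes at these folds are not given here. The count fell to 19 without control replicate 1, to 15 without control replicate 2 and to 19 without knockout replicate 1, and was 29 without knockout replicate 2. Taking each gene's dimmest probe set gave 16. Shares of all genes called under these settings are not given here, so a general loss of calls is not shown apart.

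**Figure D1:**
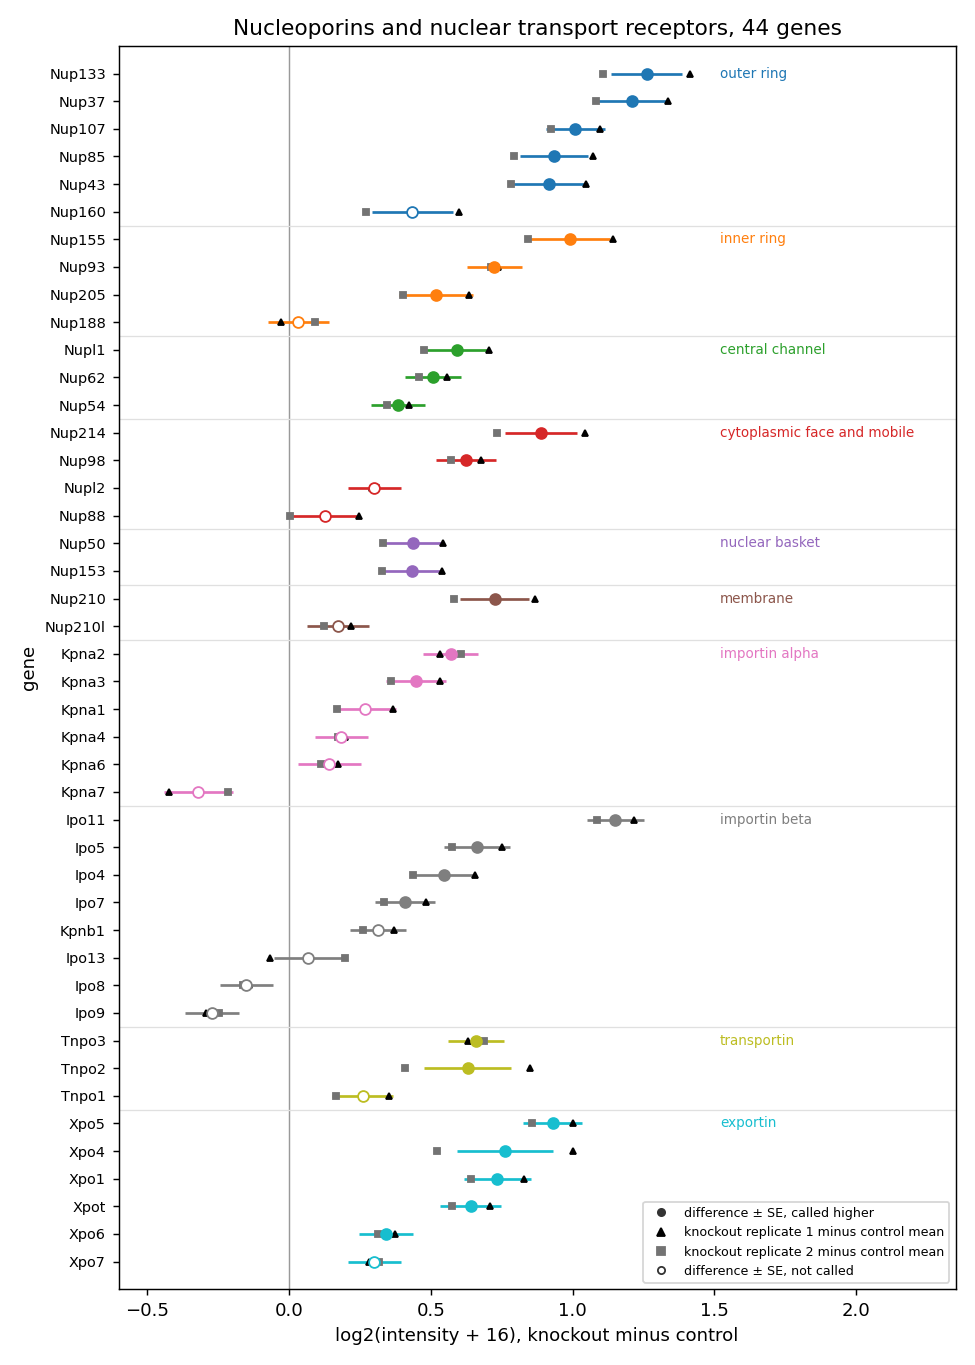
Difference between knockout and control in log2(intensity + 16) for the 44 genes, grouped by role, with the SE of the limma fit as bars and filled circles for genes that were called higher. Triangles and squares give knockout replicates 1 and 2 minus the control mean; the largest difference, 1.26, is in the outer ring, and 3 receptors lie below 0.

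The same arrays differed in markers of other cells and in the values of RNA quality measures. Of 11 enterocyte markers 8 fell and 0 rose, and their summed intensity was 78118 to 79031 in controls and 40165 to 57649 in knockouts. Of 7 markers of dividing crypt cells 6 rose, with sums of 11877 to 12095 and 17514 to 17526. Of 5 epithelial markers, among them the bright Epcam and Cdh1, 1 fell (Cdx2), with sums of 31587 to 32228 in controls and 28647 to 30482 in knockouts. Immune markers, of which 2 of 7 fell, summed to 8950 to 9271 and 8299 to 9159. That sum is mostly Lyz2, whose sequence is close to the Paneth cell gene Lyz1. Of 6 mesenchyme markers 2 fell, with sums of 1119 to 1221 and 852 to 1061. Of 4 stem cell markers 1 fell (Olfm4), of 4 goblet cell markers 1 fell, of 3 Paneth cell markers 1 rose (Mmp7), and none of 3 endothelium markers was called. None of the 50 markers lay at the lowest array value, and B cell Cd79a, at 35.6 to 40.4, was near the median of 27 Bacillus control probe sets, 31.9 to 35.6. The Gapdh control probe set at the 3' end exceeded that at the 5' end by 1.41 ± 0.0314 log2 units in control and 1.67 ± 0.0426 in knockout arrays (SD, n = 2; exact permutation p = 0.333, two-sided, the smallest that 2 against 2 can give). For Actb the gap between groups was smaller, with 0.259 ± 0.0255 in control and 0.312 ± 0.0260 in knockout arrays (SD, exact permutation p = 0.333). The part of these differences in the pore and transport results was not tested. In such tissue samples a change in the share of a cell type and a change in RNA per cell cannot be told apart.

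Among the roles of the 44 genes, the outer ring had the highest median difference. Its Y complex is the scaffold piece that starts pore assembly on chromatin, and 5 of the 6 Y complex genes taken by symbol rose, with a median difference of 0.97. Of subunits without such a symbol, Seh1l and Sec13 are given with the other pathway genes, and their differences were smaller, at 0.66 and 0.27. Ahctf1, a further nucleoporin among those genes, also had a smaller difference, 0.40 ± 0.10. Nup133, a stem subunit of the Y, read 697 and 723 in the controls and 1919 and 1548 in the knockouts. Both knockout arrays were more than double either control (1.26 ± 0.12, 2.40-fold, adjusted p = 0.00119 by limma). Of its 6 probe sets 3 rose, and a dim one had -0.082 ± 0.15 and was not called.

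Nup37, a peripheral Y subunit, read 371 and 340 in the controls and 921 and 771 in the knockouts (1.21 ± 0.12, adjusted p = 0.00117). The groups were far apart, and the knockout arrays differed more from each other than the controls did. Nup107, the partner of Nup133 in the stem, read 891 and 858 in the controls against 1889 and 1673 (1.01 ± 0.11). Nup85, on a short arm of the Y, read 924 and 949 against 1986 and 1636 (0.93 ± 0.12). Nup43, which sits on Nup85, read 314 and 256 against 603 and 499 (0.92 ± 0.14). In each of these the lower knockout array was clearly above the higher control array. Nup160, of the other arm, was the 1 gene of these 6 that was not called, with 254 and 213 in the controls and 360 and 284 in the knockouts (0.43 ± 0.14, adjusted p = 0.0684). Its groups did not overlap, but both varied widely.

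**Figure D2:**
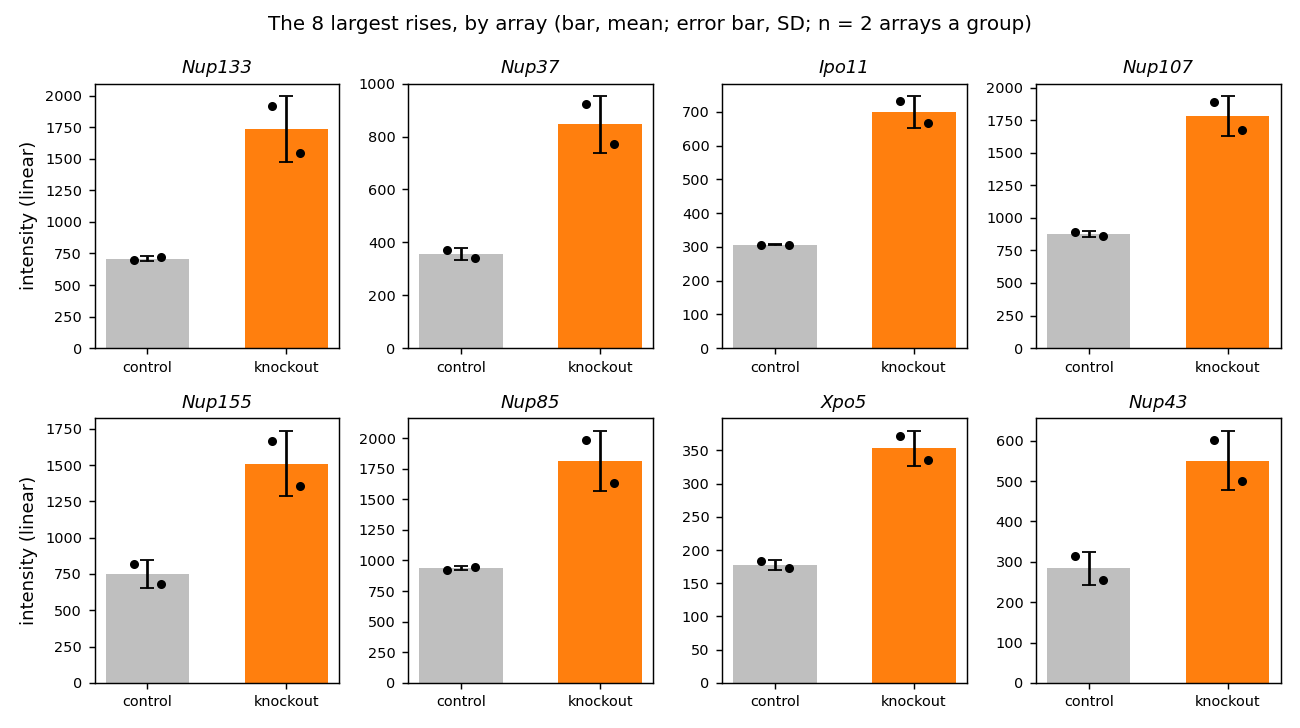
Linear intensity of the 8 genes with the largest rises in each array (points), with the group mean (bar) and SD (error bar), n = 2 arrays a group. In every panel both knockout arrays lie above both control arrays, as for Nup133 with 1919 and 1548 against 697 and 723.

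The inner ring, which anchors the scaffold to the membrane and the channel, was mixed. Nup155, its membrane-facing subunit, read 819 and 683 in the controls and 1670 and 1353 in the knockouts (0.99 ± 0.14, adjusted p = 0.00363). Nup93, the linker that holds the ring together, rose by 0.72 ± 0.10 and its arrays were close within each group, at 2073 and 1930 against 3345 and 3287. Nup205, 1 of 2 large and related scaffold proteins, rose by 0.52 ± 0.13. Its relative Nup188 did not pass the test, with 348 and 391 in the controls and 362 and 394 in the knockouts. The groups of Nup188 overlapped, and the 95% interval of its difference ran from -0.22 to 0.29.

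The channel and the basket rose by smaller steps. All 3 measured genes of the central channel, whose repeats make the permeability barrier, were called: Nupl1, also known as Nup58, by 0.59 ± 0.12, Nup62 by 0.51 ± 0.10 and Nup54 by 0.38 ± 0.10. The brightest Nup62 probe set is of a type whose oligonucleotides may bind other transcripts, and 3 others of the gene rose as well, by 0.46 to 0.58. Of these, the probe set with the largest rise is of the same type. On the nuclear side, Nup153, which anchors the basket, rose by 0.43 ± 0.11 and Nup50, a cofactor of importin alpha, by 0.44 ± 0.11. Both were higher in each knockout array than in either control.

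On the cytoplasmic side 2 of 4 genes rose. Nup214, the docking site of the RNA helicase that remodels exported mRNA, read 359 and 381 in the controls and 779 and 626 in the knockouts (0.89 ± 0.13, adjusted p = 0.00368). Nup98, whose transcript also encodes the Y complex subunit Nup96, read 643 and 715 against 1094 and 1015 (0.62 ± 0.11, adjusted p = 0.00652). Both were separated between groups. Nup88, the partner of Nup214, was at 1152 and 1132 in the controls and 1360 and 1146 in the knockouts, so that 1 knockout array lay within the controls (0.13 ± 0.11, 95% interval -0.14 to 0.40). Nupl2, also known as Nup42, had a difference of 0.30 ± 0.09 and missed the threshold at an adjusted p of 0.0584. Of the membrane proteins, Nup210 rose by 0.73 ± 0.12, while its relative Nup210l had 0.17 ± 0.11.

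Importin alpha proteins are the adaptors that read the classical nuclear localisation signal. Of 6 genes 2 rose. Kpna2, the adaptor best known from dividing cells, read 1991 and 1917 in the controls and 2834 and 2983 in the knockouts (0.57 ± 0.10, adjusted p = 0.00655). Kpna3 rose by 0.45 ± 0.11. The widely expressed Kpna1, Kpna4 and Kpna6 had smaller positive differences of 0.27, 0.19 and 0.14 that were not called. For Kpna1 the groups did not overlap and 2 of its other 4 probe sets rose, by 0.38 and 0.33. Kpna7, the adaptor known from oocytes and early embryos, went the other way, with 348 and 402 in the controls and 275 and 320 in the knockouts. Both of its knockout arrays were below both controls, but the difference of -0.32 ± 0.12 did not pass (adjusted p = 0.104).

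Importin beta and its relatives carry the cargo. Kpnb1, the partner of importin alpha, read 3853 and 3728 in the controls and 4900 and 4541 in the knockouts with its brightest probe set, and missed the threshold at 0.31 ± 0.10 (adjusted p = 0.0585). That probe set is again of the type that may bind other transcripts. The 3 further probe sets of Kpnb1 all rose, by 0.50 ± 0.10, 0.93 ± 0.10 and 0.82 ± 0.12, with adjusted p between 0.00175 and 0.0122 by limma over all probe sets. The choice of probe set thus decides whether Kpnb1 is called.

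Of the 7 Ipo genes 4 rose. Ipo11 read 307 and 305 in the controls and 732 and 667 in the knockouts. With 1.15 ± 0.10 and an adjusted p of 0.000846 it had the smallest p of the 44 genes, and its 2 control arrays were nearly equal. The other Ipo11 probe set, dim at 43.2 to 56.5, had 0.24 ± 0.10 and was not called. Ipo5 (0.66 ± 0.12), Ipo4 (0.55 ± 0.11) and Ipo7 (0.41 ± 0.11), which are known to carry ribosomal proteins or histones, also rose. Ipo9 and Ipo8 had negative differences of -0.27 ± 0.10 and -0.15 ± 0.09. Neither was called, and with the brightest probe set both had knockout arrays below both controls. All 3 probe sets of each gave negative values, but the groups overlapped in the dimmer Ipo9 probe sets, at -0.094 and -0.13. Ipo13, which works in both directions, had 298 and 323 in the controls and 296 and 358 in the knockouts, with overlapping groups.

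Among transportins, Tnpo3, the receptor of SR splicing factors, rose by 0.66 ± 0.10. Its arrays read 663 and 608 in the controls and 992 and 1032 in the knockouts, with little spread in either group. Tnpo2 rose by 0.63 ± 0.15 at lower levels, 119 and 108 against 217 and 156. Tnpo1, which imports hnRNP A1 and other RNA-binding proteins, had 0.26 ± 0.11 and was not called (adjusted p = 0.136). Its 3 probe sets read between 0.26 and 0.34.

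Exportins rose in 5 of 6 cases, with a median difference of 0.69. Xpo5, the exporter of microRNA precursors, read 183 and 173 in the controls and 372 and 335 in the knockouts (0.93 ± 0.10, adjusted p = 0.00167). The knockout arrays were about double the controls. Xpo1, the main exporter of proteins with leucine-rich signals, read 1452 and 1258 against 2412 and 2117 (0.73 ± 0.12, adjusted p = 0.00568). Xpot, which exports tRNA, rose by 0.64 ± 0.11, and Xpo4 by 0.76 ± 0.17 with knockout arrays far apart, at 516 and 366. Xpo6, the exporter of actin, had the smallest rise, 0.34 ± 0.09. Xpo7 had 0.30 ± 0.09 and missed the threshold with its brightest probe set (adjusted p = 0.0576), while 2 of its other 7 probe sets rose.

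Most probe sets of these genes, the brightest included, moved the same way. Over the 117 probe sets of the 44 genes, 69 rose (59.0%) and 0 fell when limma was fitted over all probe sets, of which 13.0% rose. The 117 include the brightest probe set of each gene, used above, and 29 of the 69 were of that kind. Both knockout arrays lay above both controls in 95 of the 117, as in 33.0% of all probe sets. Of these 95, 38 were brightest probe sets already counted above. Of the 24 called genes with several probe sets, 20 had a further one that rose, and no gene had probe sets called in opposite directions. Ipo5, Nup133 and Xpot each held a probe set with a negative value, none of them called.

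The rises were not equal in the 2 knockout arrays. In 36 of the 44 genes knockout replicate 1 was above knockout replicate 2, as in 8377 of all 18193 genes. The median difference from the control mean was 0.58 in knockout replicate 1 and 0.41 in knockout replicate 2, against medians over all genes of -0.0027 and 0.027. Xpo4 and Tnpo2 differed most between the arrays, with 516 and 366 for Xpo4 and 217 and 156 for Tnpo2. Kpna2 and Tnpo3 were slightly higher in knockout replicate 2. Enterocyte markers also stood further from the controls in knockout replicate 1, with medians of -1.42 and -0.67, whereas markers of dividing cells had 0.67 and 0.73. The part of these markers in the difference between the arrays was not tested.

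**Figure D3:**
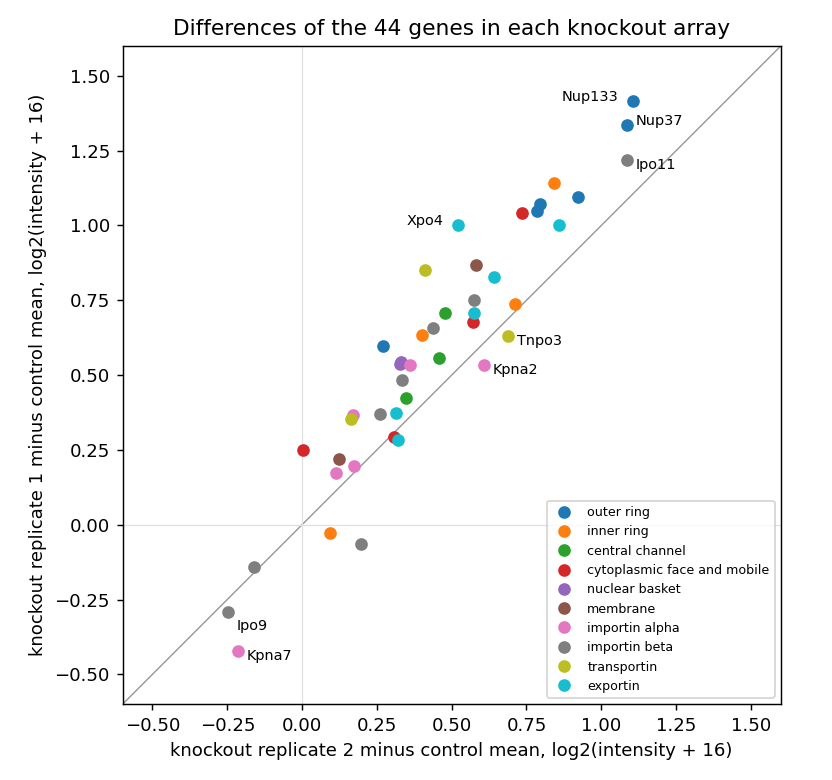
Difference from the control mean, in log2(intensity + 16), of each of the 44 genes in knockout replicate 1 (vertical) against knockout replicate 2 (horizontal), coloured by role, with the line of equal values. Most points lie above the line, with medians of 0.58 and 0.41.

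The genes with a YY1 motif match in the window were not those with the largest rises. Nup205, Nup50 and Xpo6 rose by 0.52, 0.44 and 0.34, and Nup188 and Nup88, at 0.03 and 0.13, were not called. The dimmer probe sets of Nup205 (0.13) and Nup50 (0.35 and 0.14) were not called, nor was Xpo6 with a pseudocount of 1. The median difference was 0.34 over these 5 genes and 0.59 over the 31 genes with an entry and no match, of which 22 rose. Among all measured genes with a match, 14.1% rose and 18.3% fell. These are descriptions of letters in a window and show nothing about binding.

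Other genes of the pathway rose too. Of 56 measured genes in 4 lists 32 rose and Lmnb2 fell, with a median difference of 0.40. The count that rose was 20 without control replicate 1, 17 without control replicate 2 and 20 without knockout replicate 1. Dimmest probe sets gave 19. Of 9 further nucleoporins 8 rose and 0 fell by limma, with 0 lower at an unadjusted p under 0.05. With the smallest p were Aaas (1.05 ± 0.11), Seh1l of the Y complex (0.66 ± 0.09), Gle1 (0.67 ± 0.11), the activator of the mRNA export helicase, the membrane protein Ndc1 (1.06 ± 0.18), Ranbp2 of the cytoplasmic filaments (0.57 ± 0.11) and Pom121 (0.53 ± 0.11). Sec13, a Y complex subunit that also coats secretory vesicles, had 0.27 ± 0.11 and was not called. Tpr was not analysed here.

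In the Ran cycle list 6 of 10 genes rose and 0 fell, with 0 lower at an unadjusted p under 0.05. Ran itself rose by 0.32 ± 0.09, its nucleotide exchange factor Rcc1 by 0.58 ± 0.10 and the Ran-binding protein Ranbp1 by 0.97 ± 0.10. Cse1l, the exportin that returns importin alpha to the cytoplasm, rose by 0.71 ± 0.11, the Hsp70 import factor Hikeshi by 0.72 ± 0.11 and Rangrf by 0.62 ± 0.10. Rangap1, which switches Ran off in the cytoplasm, had 0.46 ± 0.14 and missed the threshold (adjusted p = 0.0512 by limma). Ranbp3, Ranbp17 and Snupn were not called.

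Of 22 genes of mRNA export 12 rose and 0 fell, with 0 lower at an unadjusted p under 0.05. Those with the smallest p were the cap-binding genes Ncbp1 (0.96 ± 0.11) and Ncbp2 (0.68 ± 0.10), the helicases Ddx39a (0.71 ± 0.09) and Ddx19b (0.69 ± 0.11), and Thoc5 (0.58 ± 0.10) and Thoc1 (0.54 ± 0.09) of the THO complex. The general export receptor Nxf1 had 0.27 ± 0.10 and was not called. Of 15 genes of the nuclear lamina and envelope 6 rose: Emd (0.75 ± 0.09), Banf1 (0.82 ± 0.10), Tmpo (0.78 ± 0.12), Sun2 (0.69 ± 0.13), Lmnb1 (0.38 ± 0.10) and Tor1aip1 (0.40 ± 0.12). Lmnb2, a B-type lamin like Lmnb1, fell from 215 and 234 to 168 and 131 (-0.55 ± 0.13, adjusted p = 0.0226 by limma). Its call was lost without control replicate 1, control replicate 2 or knockout replicate 2 (adjusted p = 0.0699, 0.126 and 0.0672), and its dimmer probe set had -0.0641. Lmna, the A-type lamin, had 0.07 ± 0.11 and was not called.

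**Figure D4:**
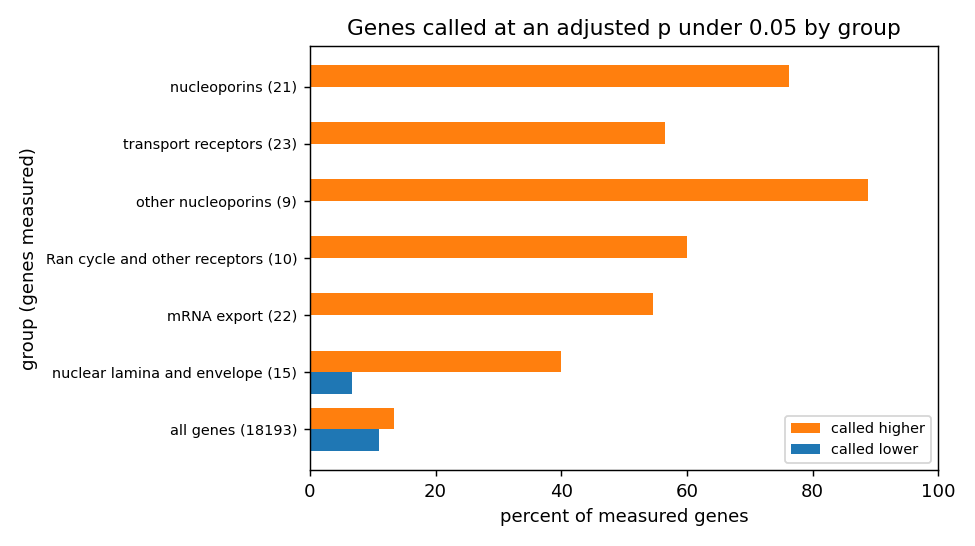
Percent of measured genes called higher (orange) or lower (blue) at an adjusted p under 0.05 in the nucleoporins and transport receptors, in 4 lists of related genes and in all genes, with the number measured in brackets. Every group has a larger share of higher calls than the 13.4% of all genes, and lower calls appear in the lamina list, with 1 gene, and in all genes, at 10.9%.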

How the data were processed

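Total RNA of the crypts was measured on Affymetrix arrays, per the labels' protocols. The authors deposited linear intensities for every probe set of each array, and the sources used here do not give how they were summarised or normalized. Medians were 139 to 143 and the lowest value 1, so no further scaling was applied. Of 45101 probe sets, 34945 had 1 gene in the platform annotation held by GEO, and a RefSeq table (GRCm38.p6) updated the symbols. The 932 with several genes were left out. Tests were run on log2(intensity + 16) by lmFit and eBayes of limma 3.58.1 (R 4.3.3), without a block. Benjamini-Hochberg adjustment was made over 18193 genes. The log2(intensity + 16) scale understates changes of dim genes. The procedure was also run on data simulated from its own fitted variances, which cannot test the assumptions of the fit. Only 2 arrays a group limit the precision. The members, lists and tests were chosen with earlier results of these data known.

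All called genes of the set were named. Values in each array were given for the 8 largest rises and for Kpna2, Kpnb1, Xpo1 and Nup98, and others shown were chosen after their values were seen. In each further list up to 6 called genes with the smallest p were named in a direction, beside Ran, Rcc1, Cse1l and Ranbp2. Ahctf1 was named as well. Alternatives covered the pseudocount, normalization, a filter on dim genes, the probe set, the prior, a replicate block and each array left out.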

Additional observations from a re-analysis of the deposited data

Results flagged for a closer look

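Probe sets that the annotation assigns to a pair of genes were outside the comparisons, and 2 of the 3 that name a gene of the set had both knockout arrays above both controls. The probe set shared by Xpo4 and Lats2 read 377 and 305 in the controls and 638 and 484 in the knockouts (log2 difference 0.69 ± 0.16, SE). The one shared by Ipo4 and Tm9sf1 read 782 and 823 against 977 and 1052 (0.33 ± 0.10).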

How the results depend on the processing

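The count of genes that rose, 29, stayed within 1.5 times under 10 of the 14 alternatives. It was 16 with each gene's dimmest probe set and lay between 15 and 29 without 1 array. The median of 0.51 over the set was 0.27 with the dimmest probe set. There Ipo5 and Xpot, which had risen, turned to -0.10. Nup188 and Kpna6, which had not been called, turned to -0.36 and -0.0621. Of the other pathway genes that had risen, Rae1 turned to -0.0766, Ddx39b to -0.0721 and Sun2 to -0.0194. The cause was not tested, other than that fewer arrays leave fewer degrees of freedom. With a pseudocount of 64, 1 gene of the set fell (Ipo9), and with the replicate block 1 fell (Kpna7). Otherwise the replicate block gave 30 higher genes and changed no call among the 29. Replicate numbers were not shown to pair the arrays, since control and knockout differences between numbers 1 and 2 correlated at r = 0.099 over genes. Of the other pathway genes, 19 rose with the dimmest probe set, and without 1 array 17 to 29 rose and 0 to 1 fell (Lmnb2). Nup107, Nup214, Nup37, Nup43, Nup85, Nup93, Tnpo3 and Xpo5 were called under all 14 alternatives. Yy1 was lower under each of them.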

Other observations

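Letters of 2 further motifs were searched in the same windows after the values were seen. The E-box CACGTG reads the same on both strands. It stood in 7 of 36 genes of the set with an entry (19.4%) and in 8.09% of all genes in the table, or 10.3% of measured genes. Of these 7 genes 6 rose, against 19 of the 29 without it, with median differences of 0.55 and 0.52. Among all measured genes that hold the E-box, 16.8% rose and 13.6% fell. The ETS-type letters CCGGAAG, on both strands, stood in 6 of the 36 and in 9.93% of all genes in the table, or 15.0% of measured genes. The 6 genes were Nup37, Nup107, Nup155, Nup54, Tnpo3 and Ipo4, all of which rose. Their median difference was 0.83, against 0.47 for the 30 genes without these letters, of which 19 rose. Among all measured genes that hold them, 25.7% rose and 7.87% fell. The counts are descriptions, and no test was made.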
